A study of Mus musculus with 8 samples.

Results

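The comparison set dorsal skin fat 50 d after wax plucking against the same tissue 10 d after plucking, with 1 microarray on each side, and used 2 of the 8 arrays of the series. Both arrays were chosen by their labelled time. The other 5 plucked arrays, taken between 12 h and 6 d, served only to place the 2 levels, and the shaved control was not used. Both samples came from female C57 BL/6 mice plucked with wax, and the labels call both adipose cells. Per the series' design text, the back had already been waxed once to bring the follicles into step before the second waxing that starts the clock, and the sampled tissue outside the follicles held fat and dermis. The labels give an age of 11 weeks for the 10 d sample and 17 weeks for the 50 d sample, while the protocol gives 7 to 8 weeks, a gap that the labels do not explain. Labelled age rises with the time after plucking, so time after plucking and age cannot be told apart. They do not say how many mice gave each sample. The arrays are one-colour Agilent expression arrays read in Cy3. A level is given in log2 units relative to the signal below which 75% of the array's probes lie, and a difference is the 50 d level minus the 10 d level. With 1 array a side the differences have no replicate check, and no test was made.

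Plucking a resting follicle starts a new growth phase, called anagen. Matrix cells at the base of the bulb then build the hair shaft and the inner root sheath around it, and melanocytes load pigment into the shaft. Growth ends with regression and a new rest, when shaft production stops. The fat layer of the skin is known to thicken during growth and to thin at rest, and sebaceous glands, which secrete a lipid mix through the hair canal, sit on the upper follicle. In bulk RNA a lower level can mean fewer cells of a type or less RNA per cell, and these cannot be told apart here.

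Of 28353 genes measured, 1728 (6.09%) were at least 2-fold higher at 50 d and 1847 (6.51%) were at least 2-fold lower. The median difference over all measured genes was -0.01. With the normexp background correction 1053 genes were higher and 651 lower, so the share of higher among called genes moved from 48.3% to 61.8%. Between spots of a probe printed 10 times the median SD of the log2 signal was 0.056 at 10 d and 0.076 at 50 d. Between probes of a gene the median SD of the difference was 0.22, and neither figure covers differences between mice.

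The difference moved with the level of the signal. In the decile of genes with the lowest mean level the median difference was -0.23 and 17.7% of genes were at least 2-fold lower. In the decile with the highest level the median was 0.21 and 11.7% were at least 2-fold higher. The 9 measurable spike-in transcripts, added to each RNA in known amounts, ran from -0.32 to 0.26. The faintest pair was lower at 50 d, at -0.27 and -0.32, and the brightest pair was higher, at 0.22 and 0.26. Per the file headers, the spike-in slope was 0.891 on the 10 d array, outside its accepted range, and 0.924 on the 50 d array. Counts of bright or faint genes can therefore move with the scaling, and the larger moves are given beside the counts.

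**Figure D1:**
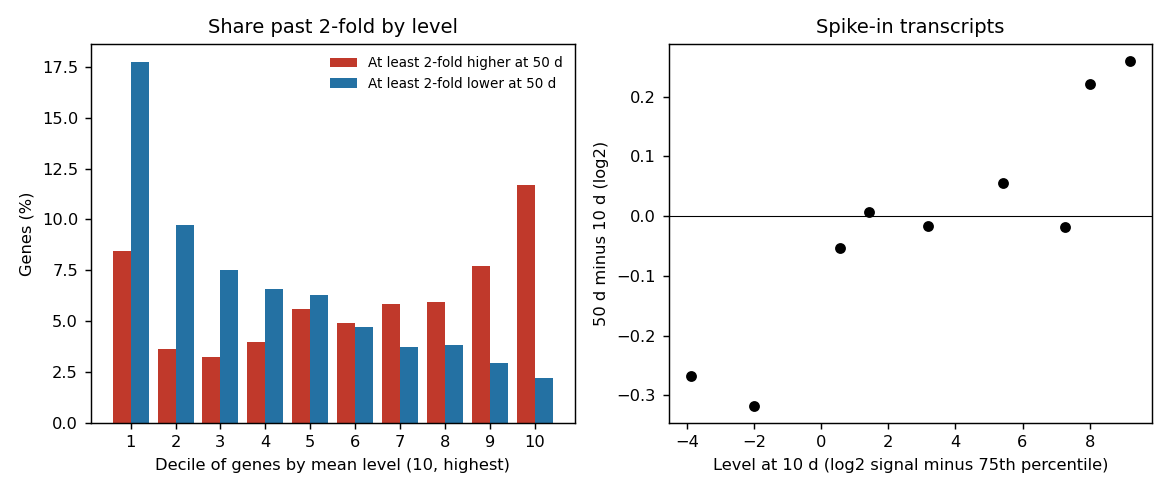
Left, percent of genes at least 2-fold higher (red) or lower (blue) at 50 d than at 10 d in each decile of genes by mean level. Right, the difference of each spike-in transcript (log2) against its level at 10 d. Calls of lower genes are most frequent in the lowest decile (17.7%) and calls of higher genes in the highest decile (11.7%), and the spike-ins run from -0.32 to 0.26.

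Promoters are shown first for genes picked by hand from both directions of the comparison. Ucp1 and Fos stand for genes that were higher at 50 d, and the hair keratins Krt34 and Krt33b with the keratin-associated protein genes Krtap6-1 and Krtap3-1 for those that were lower. Each is the stretch of 250 bases before the first listed RefSeq start (GRCm38.p6), written 5′ to 3′ on the gene's strand. Capitals mark TATAAA or, in Ucp1, TATATA, and also CTTTGAA, a core form of the site bound by LEF1 and TCF factors, and TGACGT, part of the cyclic AMP response element. The coordinates are chr8:83290098-83290347, plus strand for Ucp1; chr12:85473640-85473889, plus strand for Fos; chr11:100041555-100041804, minus strand for Krt34. They are chr11:100029869-100030118, minus strand for Krt33b; chr16:89031449-89031698, plus strand for Krtap6-1; chr11:99566631-99566880, minus strand for Krtap3-1.
Ucp1: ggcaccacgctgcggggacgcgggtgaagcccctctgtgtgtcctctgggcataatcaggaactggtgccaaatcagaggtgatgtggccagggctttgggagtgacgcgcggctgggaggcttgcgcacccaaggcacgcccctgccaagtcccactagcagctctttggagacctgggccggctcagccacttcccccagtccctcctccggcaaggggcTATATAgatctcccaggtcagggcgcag
Fos: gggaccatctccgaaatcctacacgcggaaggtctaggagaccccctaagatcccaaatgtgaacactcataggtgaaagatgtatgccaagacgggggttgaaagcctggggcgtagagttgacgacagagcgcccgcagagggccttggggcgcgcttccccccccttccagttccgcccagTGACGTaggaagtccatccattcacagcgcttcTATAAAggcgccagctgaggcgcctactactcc
Krt34: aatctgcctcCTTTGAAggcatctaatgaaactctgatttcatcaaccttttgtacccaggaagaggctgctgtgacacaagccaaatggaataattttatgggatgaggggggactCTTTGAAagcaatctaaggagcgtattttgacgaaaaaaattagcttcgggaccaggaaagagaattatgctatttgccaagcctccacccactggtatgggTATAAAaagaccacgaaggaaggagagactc
Krt33b: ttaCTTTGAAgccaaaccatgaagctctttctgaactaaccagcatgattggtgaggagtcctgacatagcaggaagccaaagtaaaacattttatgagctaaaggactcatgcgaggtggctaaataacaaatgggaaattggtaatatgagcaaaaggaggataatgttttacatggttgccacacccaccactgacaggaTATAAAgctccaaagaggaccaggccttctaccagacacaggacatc
Krtap6-1: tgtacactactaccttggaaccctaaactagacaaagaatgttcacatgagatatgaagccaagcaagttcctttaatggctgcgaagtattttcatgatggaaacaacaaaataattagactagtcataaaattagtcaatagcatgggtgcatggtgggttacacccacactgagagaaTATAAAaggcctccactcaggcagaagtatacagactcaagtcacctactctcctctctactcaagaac
Krtap3-1: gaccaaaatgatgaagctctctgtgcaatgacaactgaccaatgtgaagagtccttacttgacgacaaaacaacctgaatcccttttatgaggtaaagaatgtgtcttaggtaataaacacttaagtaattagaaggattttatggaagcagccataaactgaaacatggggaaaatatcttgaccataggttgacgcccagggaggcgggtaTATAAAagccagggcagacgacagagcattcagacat

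The hair gene promoters often held a TATA box. TATAAA, searched on both strands, was present in 36 of the 45 keratin-associated protein genes with a promoter entry (80.0%), in 6 of 9 hair shaft keratins (66.7%) and in 8 of 13 inner root sheath genes (61.5%), against 13.0% of all 27025 promoters of the same length. CTTTGAA was present in 5 of the 9 hair shaft keratins and in 7 of the 45 keratin-associated protein genes, but in 1 of the 13 inner root sheath genes, against 4.64% of all promoters. Krt34 held it at a pair of places. TATATA was present in 20 of the 45 keratin-associated protein genes (44.4%) against 5.56% of all promoters. TGACGT was present in 5 of 14 immediate early genes (35.7%) against 6.56% of all promoters. CCAAT was present in 15 of 16 cholesterol synthesis genes (93.8%) and in 13 of 22 citric acid cycle genes (59.1%), against 34.5%. Respiratory chain genes held CTTCCGG, a site of ETS factors, in 7 of 44 (15.9%) against 7.05%, and GCATGCGC, part of the NRF1 site, in 5 of 44 (11.4%) against 2.32%. The motifs were picked after shares of these promoters had been seen, sites of TATAAA and TATATA can share bases, and a match says only that the letters occur.

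Genes of the growing hair were far lower at 50 d. Of the 51 keratin-associated protein genes measured, which encode the matrix proteins that cross-link keratin filaments in the shaft, 48 were at least 2-fold lower, none was higher, and their median difference was -5.07, against 6.51% of all genes lower. Of 15 hair shaft keratins 14 were lower, with a median of -3.92. Of 15 inner root sheath genes 12 were lower, with a median of -3.35. In these groups 6, 4 and 2 members respectively were not well above background at 50 d, and with such members at their bound the keratin-associated median was -4.75.

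Among genes with a proper symbol and measured on both arrays, the 12 lowest differences were all of this family. Clone names, predicted genes and accessions, some of which lay as low, are left unnamed. Krtap16-5, now named Krtap19-3, was at 3.29 at 10 d and -4.02 at 50 d, 159-fold lower. Krtap16-1, now Krtap19-2, with its probe at chr16:88874321-88874380 (mm9), was at 6.74 and -0.35, 137-fold lower. Krtap6-2 was at 2.91 and -4.05, 124-fold lower. For each of these the 10 d array was the highest of the 7 plucked arrays, and the 50 d level lay within the range of the other 5. The rest of these 12 were Krtap16-10 (now Krtap16-3), Krtap16-7 (now Krtap21-1), Krtap14, Krtap28-13, Krtap6-1, Krtap1-5, Krtap3-1, Krtap3-3 and Krtap16-8 (now Krtap6-5), from 119-fold down to 74.7-fold lower. Among genes below background at 50 d, Krtap16-9 (now Krtap19-1) went from 0.92 to at least 67.5-fold lower and Krtap2-4 from 0.68 to at least 56.9-fold lower. Krtap7-1 was at least 23.0-fold lower. Lyg2, a lysozyme-like gene in no list, was at -0.48 at 10 d and at least 25.5-fold lower at 50 d. Many of these genes are near-identical copies, so a probe may read more than 1 of them.

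The keratin-associated genes lie in clusters, and the clusters differed in where 10 d stood. On chromosome 16 (probes between 88611735 and 89570480, mm9) 20 of 21 measured genes were lower at 50 d, with a median of -6.02, and 16 of the 21 were higher at 10 d than at 6 d, by a median of 0.99. On chromosome 11 (probes between 99411448 and 99854715) all 20 were lower at 50 d, with a median of -5.11, but 5 of the 20 were higher at 10 d than at 6 d, and the median 10 d minus 6 d difference was -0.46. The chromosome 16 cluster holds mostly glycine- and tyrosine-rich members, and the chromosome 11 cluster mostly sulfur-rich members. Whether the clusters differ was not tested.

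Among the shaft keratins, Krt34 (probe at chr11:99898830-99898889, mm9) was at 3.95 at 10 d and -2.21 at 50 d, 71.4-fold lower. Krt33b was at 4.18 and -1.85, 65.2-fold lower, and its promoter above carries both marked motifs. Krt33a was at 5.20 and -0.58, 55.0-fold lower. These type I hair keratins pair with type II partners such as Krt86, which was at 5.09 and 0.33, 27.2-fold lower, and Krt83 (now Krt87), which was at 1.68 and -3.63, 39.6-fold lower. The exception below 2-fold was Krt85, whose brightest probe gave -0.40 while its probes ran from -4.79 to -0.40.

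The inner root sheath, which moulds the shaft and is shed inside the canal, gave the same direction. Tchhl1, a relative of trichohyalin, was at 3.47 at 10 d and -2.62 at 50 d, 68.0-fold lower. Trichohyalin itself, Tchh, was at 6.40 and 1.57, 28.4-fold lower. Krt71 was at 7.04 and 2.70, 20.2-fold lower, and Krt27 was at 4.99 and 0.67, 20.1-fold lower. Krt26 was at 0.08 and at least 35.3-fold lower. The inner root sheath genes had passed their highest array by 10 d: only 1 of the 15 was highest there, against 8 of the 15 shaft keratins and 23 of the 51 keratin-associated genes.

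Transcription factors of the hair matrix were lower in part. Of 18 measured, 8 were at least 2-fold lower, or 5 with the normexp correction, and the median was -0.69. Foxn1, the factor missing in nude mice, was at -1.43 at 10 d and at least 13.2-fold lower at 50 d. Hoxc13, a direct regulator of hair keratin genes, was at 0.02 and -2.56, 5.96-fold lower. Lef1, the partner of beta-catenin in the matrix, was at 0.64 and -1.64, 4.87-fold lower. Ovol1 was 5.25-fold lower and Dlx2 4.57-fold lower. Msx2 differed by -0.69, less than 2-fold, and Dlx3 was 0.87 higher.

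Pigment genes followed the shaft. Of 17 melanocyte genes 10 were at least 2-fold lower, none was higher, and the median was -1.52. Tyrp1, an enzyme of melanin synthesis, was at 0.41 at 10 d and -1.82 at 50 d, 4.67-fold lower. Pmel, which forms the fibrils of the pigment granule, was at 0.74 and -1.20, 3.83-fold lower. Gpr143, Oca2 and Mc1r were below background at 50 d and at least 2.78-fold, 4.17-fold and 3.86-fold lower. The lineage genes Kit and Sox10 differed by 0.39 and 0.15. Tyr differed by -0.32. With the normexp correction 5 rather than 10 were lower.

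**Figure D2:**
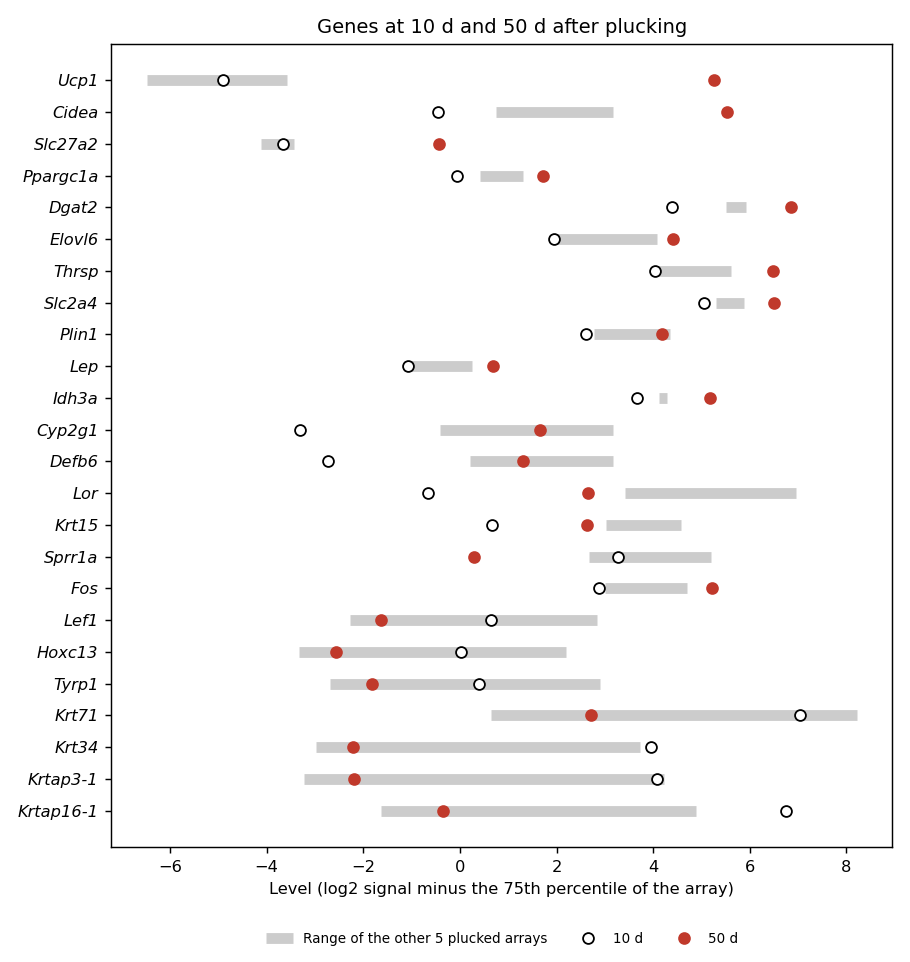
Levels of 24 genes at 10 d (open circles) and 50 d (red) on the log2 scale relative to the 75th percentile of each array, with the range of the other 5 plucked arrays in grey. Ucp1, Cidea and Slc27a2 at 50 d lie above that range, Cyp2g1, Defb6 and Lor at 10 d lie below it, and hair genes at 50 d lie inside it.

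Sebaceous gland genes went the other way. Their list median was the highest of the 45 lists, but with the normexp correction or the filter on both arrays that of fatty acid and triglyceride synthesis was higher, at 1.35 against 1.24 and at 1.391 against 1.385. Of 20 measured, 13 were at least 2-fold higher at 50 d, none was lower, and the median was 1.78, against 6.09% of all genes higher. The 10 d array was the lowest of the 7 plucked arrays for 14 of the 20, and the 50 d array was the highest for 4. Measured against the 6 d array, 8 of the 20 were at least 2-fold higher at 50 d and the median was 0.80.

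Cyp2g1, a cytochrome P450 (probe at chr7:27606111-27606170, mm9), was at -3.31 at 10 d and 1.65 at 50 d, 31.2-fold higher. Defb6, a beta-defensin, was at -2.74 and 1.31, 16.6-fold higher. Elovl4, which elongates very long fatty acids, was at -1.80 and 1.21, 8.05-fold higher. On the other plucked arrays these genes lay between -0.42 and 3.63, so the 10 d level stood below the range and the 50 d level inside it. Far2, which makes fatty alcohols for wax, and Dgat2l6, an acyltransferase of the wax synthase family, were below background at 10 d and at least 7.25-fold and 5.58-fold higher at 50 d. Awat1, a wax synthase, was at -4.23 and -1.88, 5.10-fold higher. Soat1 differed by -0.88 and the receptor Mc5r by -0.56. Sdr16c6, a short-chain dehydrogenase, and Aadac, a lipid esterase, in no list, were 14.4-fold and at least 8.03-fold higher.

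The surface epidermis was split. Of 25 suprabasal genes 11 were at least 2-fold higher at 50 d and 5 were lower, or 2 with the normexp correction, with a median of 0.36. Loricrin (Lor), the main protein of the cornified envelope, was at -0.67 at 10 d and 2.64 at 50 d, 9.92-fold higher. Flg2 was at least 5.31-fold higher, Lce1a1 was 6.07-fold higher and Lce1m 6.40-fold higher. Krt1, at -3.50 and -1.41, was 4.24-fold higher, and its partner Krt10, at 0.23 and 2.08, was 3.60-fold higher. The members that were lower were Cnfn (-2.48), Ivl (-2.26), Dsc1 (-1.89), Tgm1 (-1.61) and Dsg1a (-1.15). Both arrays were low: 10 d was the lowest plucked array for 15 of the 25 and 50 d for 9, and the summed signal was 28.0 at 10 d and 41.7 at 50 d, against 73.5 to 354 on the other 5.

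Basal keratinocytes, the dividing layer, showed 2 of 16 genes (12.5%) higher and 3 (18.8%) lower, against 6.09% and 6.51% of all genes. The median was 0.22, and with the spike-in slope 5 were lower. Col17a1, an anchor of basal cells, was at -2.90 at 10 d and -0.84 at 50 d, 4.17-fold higher. Dsp, Pkp1 and Sfn were 2.64-fold, 2.42-fold and 2.18-fold lower. The summed signal of this list was 69.6 and 65.2, against 129 to 325 on the other plucked arrays. How much skin epidermis each sample carried was not measured, and its part in the epidermal, sebaceous and hair differences was not tested.

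Wound keratinocyte genes were lower at 50 d. Of 14 measured 6 were lower, or 2 with the normexp correction, and none higher, with a median of -0.77. Sprr1a, a cornified envelope protein switched on by wounding, was at 3.28 at 10 d and 0.29 at 50 d, 7.93-fold lower, and the 50 d level was below all other plucked arrays. Sprr1b was at -0.85 and at least 19.8-fold lower. Only 2 of the 10 genes well above background on both arrays were at least 2-fold lower.

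Most stem cell and papilla markers differed by less than 2-fold. In the bulge and hair germ list 4 of 17 (23.5%) were higher, against 6.09% of all genes, or 2 with the normexp correction. In that list 1 (5.88%) was lower, against 6.51% of all genes, and the median was 0.58. The 10 d array was the lowest of the plucked arrays for 8 of the 17, and the 50 d array was the highest for none. Krt15, a bulge keratin, was at 0.67 at 10 d and 2.64 at 50 d, 3.91-fold higher, with 3.02 to 4.57 on the other plucked arrays. Krt75, a keratin of the companion layer, was at -1.24 and -4.57, 10.0-fold lower. In the dermal papilla list 3 of 19 were higher and 2 lower. Alpl, at -1.32 and 0.17, was 2.81-fold higher and Wif1, at -0.999 and -2.52, was 2.87-fold lower.

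**Figure D3:**
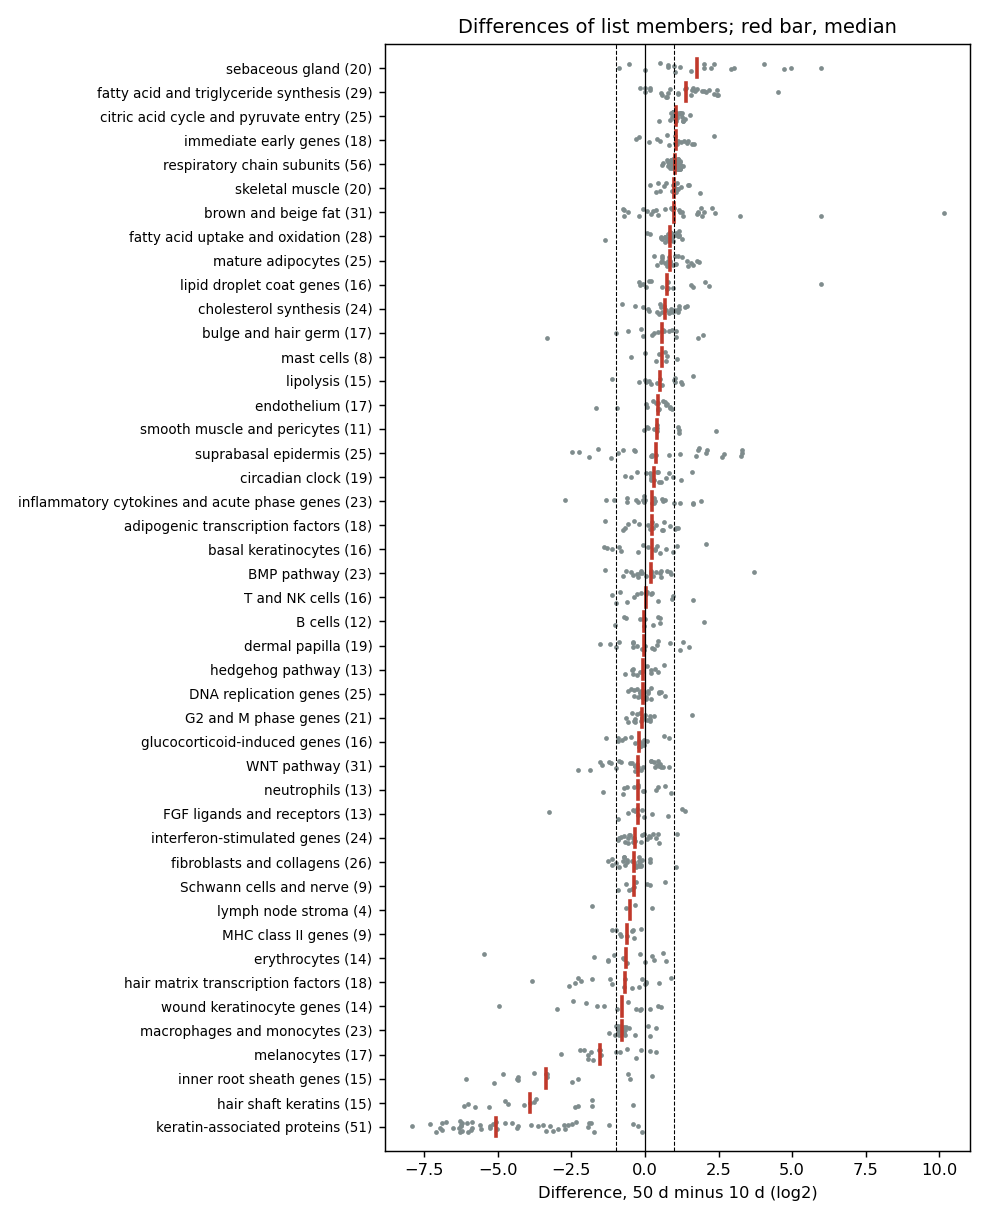
Difference (50 d minus 10 d, log2) of each measured member of 45 gene lists, ordered by the median (red bar), with the number measured in brackets and dashed lines at 2-fold. Hair lists lie at the bottom (medians -5.07, -3.92 and -3.35) and sebaceous gland genes at the top (1.78).

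The largest single difference of the comparison was Ucp1, the uncoupling protein by which brown and beige fat burn fuel as heat. Its probe at chr8:85821788-85821847 (mm9) read -4.90 at 10 d, not well above background, and 5.26 at 50 d, at least 974-fold higher. On the other 5 plucked arrays it lay between -6.48 and -3.59, so the 50 d array stood alone. Ucp1 has 1 probe passing the filter, and the value comes from 1 array.

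Part of the brown and beige fat list was higher too. Of 31 genes measured 15 (48.4%) were at least 2-fold higher at 50 d, against 6.09% of all genes. None was lower, and the median was 0.98, against 1.00 for the skeletal muscle list described below. Cidea, a lipid droplet protein of brown fat that is also made in sebaceous glands, was at -0.45 at 10 d and 5.53 at 50 d, 63.0-fold higher, and 0.74 to 3.17 on the other 5 arrays. Slc27a2, a fatty acid transporter, was at -3.65 and -0.43, 9.31-fold higher, with -4.11 to -3.44 elsewhere. For both, the 50 d array was the highest of the plucked arrays. Acot11, a thioesterase induced by cold, was at -0.63 and 1.77, 5.26-fold higher, and Esrrg, an orphan nuclear receptor of oxidative tissues, at -2.18 and 0.10, was 4.87-fold higher. The coactivators Ppargc1a, at -0.07 and 1.71, and Ppargc1b, at -1.87 and 0.07, were 3.44-fold and 3.84-fold higher. Dio2, which activates thyroid hormone, was at -2.51 and -0.71, 3.50-fold higher.

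Genes that specify brown fat did not show that size of difference. Prdm16 differed by 0.38, Ebf2 by -0.76, Zic1 by -0.57 and Lhx8 by -0.22. The list shares members with many others. Elovl3 and Cidea are also in the sebaceous list, Elovl3 in fat synthesis and Cidea among droplet coat genes. Fabp3 and several others are also in fatty acid uptake and oxidation, and Adrb3 in mature adipocytes and lipolysis. Cox7a1 and Cox8b are also in the respiratory chain, so these counts are not independent.

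Genes of mature fat cells were higher as well. All 25 mature adipocyte genes differed by more than 0, or 24 with quantile normalization or the spike-in slope, 11 were at least 2-fold higher, and the median was 0.84. Leptin (Lep), the satiety hormone secreted by fat, was at -1.08 at 10 d and 0.68 at 50 d, 3.39-fold higher. Slc2a4, the insulin-responsive glucose transporter, was at 5.04 and 6.50, 2.74-fold higher. Plin1, the main droplet coat of fat cells, was at 2.62 and 4.18, 2.95-fold higher. Npr3, the clearance receptor for natriuretic peptides, was 3.60-fold higher and Tshr 3.08-fold higher. Adiponectin (Adipoq), at 6.02 and 7.09, was 2.10-fold higher, while adipsin (Cfd) differed by 0.32 and Fabp4 by 0.59. The 50 d array was the highest of the plucked arrays for 8 of the 25, and the 1 d and 2 d arrays were close to it in list median, at 0.46 and 0.60 against 0.51 relative to each gene's mean over the 7. With quantile normalization 7 of the 25 were at least 2-fold higher.

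Genes of fat synthesis were also higher at 50 d. Of 29 genes 18 were at least 2-fold higher, none was lower, and the median was 1.41. Slc2a5, the fructose transporter, was below background at 10 d and at -0.17 at 50 d, at least 22.7-fold higher. Elovl6, which elongates palmitate, was at 1.94 and 4.41, 5.55-fold higher. Dgat2, which catalyses the last step of triglyceride synthesis, was at 4.39 and 6.86, 5.51-fold higher. Thrsp, a lipogenic gene induced by thyroid hormone and carbohydrate, was at 4.03 and 6.48, 5.45-fold higher. The 50 d array was the highest for 19 of the 29 and the 10 d array the lowest for 15. Acss2, at 1.45 and 3.81, was 5.13-fold higher by its brightest probe, and its other probe gave 0.98. Insig1, a sterol-regulated anchor protein, was 2.59-fold higher and the transcription factor Srebf1 2.18-fold higher. Fasn, fatty acid synthase, at 1.54 and 3.62, was 4.23-fold higher. With other scalings and filters the number of higher genes ran from 17 to 18. Gys2, a glycogen synthase in no list, at -2.28 and 1.00, was 9.73-fold higher.

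Among droplet coat genes 5 of 16 were higher, with a median of 0.76. Pnpla3, at 0.05 and 2.24, was 4.56-fold higher, Fitm1, at 1.97 and 4.02, was 4.13-fold higher, and G0s2, an inhibitor of the first lipase, at 1.46 and 3.11, was 3.13-fold higher. Among lipolysis genes 6 of 15 were higher and 1, Npr1, was 2.17-fold lower. The beta-3 adrenergic receptor Adrb3, at 3.42 and 4.70, was 2.42-fold higher and hormone-sensitive lipase (Lipe), at 0.15 and 1.18, was 2.05-fold higher. With quantile normalization or the normexp correction 3 lipolysis genes were higher.

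Most adipogenic transcription factors differed by less than 2-fold. Of 18 measured 3 (16.7%) were higher and 1 (5.56%) lower, against 6.09% and 6.51% of all genes, with a median of 0.25. Pparg, the master factor of fat cells, at 2.85 and 3.88, was 2.03-fold higher and Cebpa differed by 0.84. Cebpd, an early factor of the programme, at 5.73 and 4.36, was 2.58-fold lower. With the normexp correction none of the 18 was higher.

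Mitochondrial genes were higher by a narrow margin in nearly every member. All 56 respiratory chain subunits differed by more than 0, 32 were at least 2-fold higher, and the median was 1.03, with members from 0.57 to 1.30. The 50 d array was the highest of the plucked arrays for all 56 and the 10 d array the lowest for 51. Cox7a1, a muscle and brown fat subunit of complex IV, at 5.82 and 7.11, was 2.46-fold higher. Ndufs4, of complex I, at 3.96 and 5.20, was 2.35-fold higher, and Atp5g1, of the ATP synthase, was 2.34-fold higher by its brightest probe with another at -0.61. These genes lie in the highest decile by signal, where 11.7% of all genes were higher. The count rests on the scaling: with quantile normalization 1 of the 56 was at least 2-fold higher, at a median of 0.77, and with signals scaled by the spike-in slope 18 were, at a median of 0.90.

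The citric acid cycle list, with the entry of pyruvate, had 16 of 25 higher, none lower and a median of 1.07. Idh3a, a subunit of isocitrate dehydrogenase, was at 3.66 at 10 d and 5.17 at 50 d, 2.85-fold higher, with 4.12 to 4.28 on the other plucked arrays. Dlat, of the pyruvate dehydrogenase complex, at 1.15 and 2.52, was 2.60-fold higher. The 50 d array was the highest for 23 of the 25. With quantile normalization 6 were at least 2-fold higher. In fatty acid uptake and oxidation 27 of 28 were above 0, or 25 with quantile normalization and 26 with the spike-in slope, and 7 were at least 2-fold higher, or 1 with quantile normalization. Acadm, the medium-chain dehydrogenase, was 2.39-fold higher and Hadhb 2.25-fold higher. Cpt1a, the liver-type gate of fatty acids into mitochondria, at 3.18 and 1.83, was 2.54-fold lower.

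Skeletal muscle genes moved with the mitochondrial genes. Dorsal skin carries a thin muscle sheet under the fat, and all 20 muscle markers were well above background on both arrays. All 20 differed by more than 0, or 18 with quantile normalization and 19 with the spike-in slope, 10 were at least 2-fold higher, and the median was 1.00. With those scalings 3 and 5 were at least 2-fold higher. Their summed signal was 4012 at 10 d and 6377 at 50 d, against 3650 to 4811 on the other plucked arrays. Myh7, a slow myosin, at 2.02 and 3.89, was 3.64-fold higher, and myoglobin (Mb), at 5.88 and 7.34, was 2.75-fold higher. Fast fibre genes such as Myh4, at 8.61 and 8.98, and Acta1, at 8.63 and 9.36, differed by 0.36 and 0.72. The part of muscle RNA in the mitochondrial differences and in those of the brown and beige fat list, Fabp3 and Cox7a1 among them, was not tested. The highest difference among genes with a proper symbol measured on both arrays, Itgb1bp3, now Nmrk2, a nicotinamide riboside kinase of striated muscle, was at -2.23 at 10 d and 3.92 at 50 d, 70.9-fold higher. It ranged from -2.14 to 2.84 on the other plucked arrays, so it varied widely there too. The remaining such genes among the 12 highest were in no list: Hamp2, a hepcidin gene, the olfactory receptor gene Olfr1178 and Rarres1 were 7.93-fold, 8.60-fold and 7.86-fold higher.

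**Figure D4:**
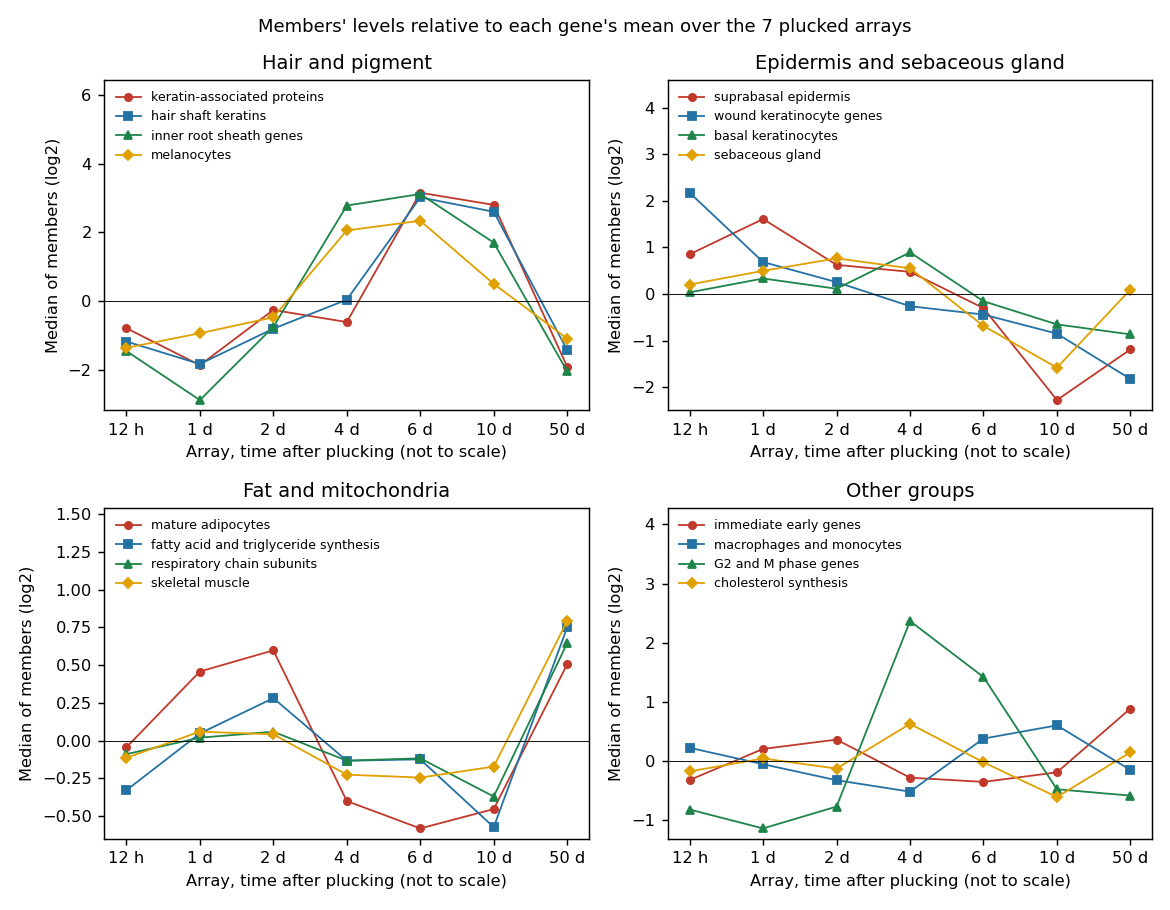
Median over the members of 16 lists of the level relative to each gene's own mean over the 7 plucked arrays (log2), in time order with 1 array at each time. Hair lists peak at 6 d. At 50 d the shaft keratin and inner root sheath medians lie inside the range of the 12 h to 2 d arrays. The keratin-associated median at 50 d (-1.91) lies below all other arrays, next to 1 d (-1.87). Sebaceous and suprabasal genes are lowest at 10 d, and synthesis, respiratory chain and muscle genes are highest at 50 d.

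Cholesterol synthesis genes, whose promoters carried CCAAT most often, had 6 of 24 higher and none lower, with a median of 0.69. Sc5d, at 1.07 and 2.51, was 2.70-fold higher and Idi1 2.22-fold. The 10 d array was the lowest of the plucked arrays for 18 of the 24 and 50 d the highest for 5. Against the 6 d array the list median was 0.08.

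Immediate early genes, which cells switch on within minutes of a stimulus, were higher at 50 d. Of 18 measured 11 were higher, none was lower, and the median was 1.06. Fos, whose promoter above carries TGACGT, was at 2.88 at 10 d and 5.22 at 50 d, 5.06-fold higher, against 3.00 to 4.70 on the other 5 arrays. Nr4a2, at -0.03 and 1.65, was 3.20-fold higher. Zfp36, Btg2 and Nr4a1 were 2.99-fold, 2.76-fold and 2.71-fold higher. The 50 d array was the highest of the plucked arrays for 13 of the 18, and against the 6 d array 12 were at least 2-fold higher. How the tissue was handled before lysis is not given in the sources used here, and its part was not tested.

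Ligands and targets of hair cycle signalling differed from list to list. Of 31 WNT pathway genes 6 (19.4%) were lower, against 6.51% of all genes, and none higher, with a median of -0.24. With the normexp correction 4 were lower. Wnt3 was at -3.53 and at least 3.08-fold lower, and Wnt16, at -1.60 and -3.06, was 2.73-fold lower. Wnt10b, at -0.84 and -1.84, was 1.99-fold lower and just missed the call. Wnt10a differed by -0.26, and the target Axin2 by 0.63.

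Of 23 BMP pathway genes 1 (4.35%) was higher and 1 (4.35%) lower, against 6.09% and 6.51% of all genes. The antagonist Grem1 was below background at 10 d and at -2.25 at 50 d, at least 5.37-fold higher, and the ligand Bmp8a, at 1.56 and 0.20, was 2.57-fold lower. Bmp2 differed by -0.49, Bmp4 by -0.40 and Nog by -0.10. The targets Id1, at 1.52 and 2.37, and Id3 differed by 0.86 and 0.36. No hedgehog gene of 13 reached 2-fold in either direction: Gli1 differed by -0.44 and Ptch1 by 0.22. Among 13 FGF ligands and receptors 2 (15.4%) were higher and 1 (7.69%) lower. Fgf5, which ends the growth phase, was at -3.81 at 10 d and at least 2.53-fold lower at 50 d. Fgf18, a ligand of the resting bulge, was at 1.60 and 1.85, a difference of 0.25, Fgf7 differed by -0.42 and Fgf22 by -0.58. Fgf13 and Fgf1 were 2.57-fold and 2.41-fold higher by their brightest probes, while another probe of each gave 0.12 and -0.50.

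Few proliferation genes reached 2-fold. In the G2 and M phase list 1 of 21, Aurka, was higher at 3.06-fold and none was lower, with a median of -0.09, and no DNA replication gene of 25 reached 2-fold. Mki67 was at 1.00 and 0.64, with 0.04 to 4.17 on the other plucked arrays. Against the 6 d array 19 of the 21 mitosis genes were at least 2-fold lower at 50 d.

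The clock list had 2 of 19 higher, among them Cry1 at 3.01-fold, and none lower. Arntl differed by 0.21, Nr1d1 by 0.18 and Dbp by 0.46, and Per1 by -0.69 with another probe at 1.30. Of 16 genes induced by glucocorticoids 1, Errfi1, was lower, at 2.48-fold, and with quantile normalization or the spike-in slope 4 were lower. Fkbp5, at 2.69 and 1.76, was 1.90-fold lower and lay below all other plucked arrays at 50 d.

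Most macrophage genes differed by less than 2-fold. Of 23 measured 20 were below 0, with a median of -0.78, and 2 (8.70%) were at least 2-fold lower, against 6.51% of all genes. The list's median level lay in the highest decile by signal, where 2.19% of genes were lower and the median difference was 0.21. With quantile normalization 11 of the 23 were lower and with the spike-in slope 12, at medians of -0.96 and -1.002, and on the main scale the 10 d array was the highest of the plucked arrays for 15. Cd163, at -0.35 and -1.58, was 2.33-fold lower and Mrc1, at 4.93 and 3.92, was 2.02-fold lower. Both are scavenger receptors of resident macrophages. All 9 MHC class II genes were below 0, and Ciita, their master regulator, was 2.16-fold lower, while with quantile normalization 2 and with the spike-in slope 3 of the 9 were lower. Cxcl13, a chemokine for B cells, at 4.74 and 2.95, was 3.47-fold lower.

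Inflammatory genes went both ways, with 4 of 23 (17.4%) higher and 3 (13.0%) lower, against 6.09% and 6.51% of all genes. Il6, at -3.01 and -1.10, was 3.74-fold higher, Il1b 3.09-fold and Cxcl1 3.08-fold higher. Saa3, an acute phase protein, at -0.44 and -3.15, was 6.58-fold lower, and the decoy receptor Il1r2 was 2.50-fold lower. Of 24 interferon-stimulated genes Cxcl10 was 2.13-fold higher and none was lower, or 2 with quantile normalization or the spike-in slope. Among neutrophil genes Retnlg, at 0.01 and -1.42, was 2.71-fold lower, while S100a9 differed by 0.87. The B cell list had 1 of 12 (8.33%) higher and 1 (8.33%) lower, near the 6.09% and 6.51% of all genes, with a median of -0.02. Igj (now Jchain), a plasma cell gene, at 0.62 and 2.62, was 4.00-fold higher, and Pax5, a B cell factor, was 2.05-fold lower. The T and NK cell list had 1 of 16 (6.25%) higher and 1 (6.25%) lower, also near the shares of all genes, with a median of 0.04. Cd3g, of the T cell receptor complex, was at least 3.05-fold higher, and the granzyme Gzma was 2.17-fold lower. The mast cell protease Mcpt4, at 3.97 and 5.05, was 2.12-fold higher.

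The connective tissue was lower in a few genes. Of 26 fibroblast and collagen genes 3 (11.5%) were lower and 1 (3.85%) higher, against 6.51% and 6.09% of all genes. Their median was -0.36, and 12 members were highest at 10 d. Fibronectin (Fn1), at 7.46 and 6.21, was 2.37-fold lower, fibrillin (Fbn1) 2.18-fold and the protease Mmp2 2.17-fold lower. Col1a1 differed by -0.37. With quantile normalization or the spike-in slope 6 of the 26 were lower. In the smooth muscle and pericyte list 4 of 11 were higher, with Lmod1, at -3.07 and -0.64, 5.39-fold and Rgs5 2.24-fold higher. In the endothelium list 15 of 17 were above 0 and none was 2-fold higher, with a median of 0.45. Its 1 lower gene was Lyve1, carried by lymph vessels and some macrophages, at 2.92 and 1.27, 3.14-fold lower. No nerve gene of 9 reached 2-fold, or 1 was lower with quantile normalization or the spike-in slope. Red cell genes had 5 of 14 lower, or 3 with the normexp correction and 8 with the spike-in slope, among them Alas2, the first enzyme of haem synthesis, at 4.03 and 2.76, 2.42-fold lower. Epb4.2 (now Epb42) was at -1.37 and at least 13.7-fold lower. The globins Hba-a1 and Hbb-b1 differed by -0.60 and -0.70.

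**Figure D5:**
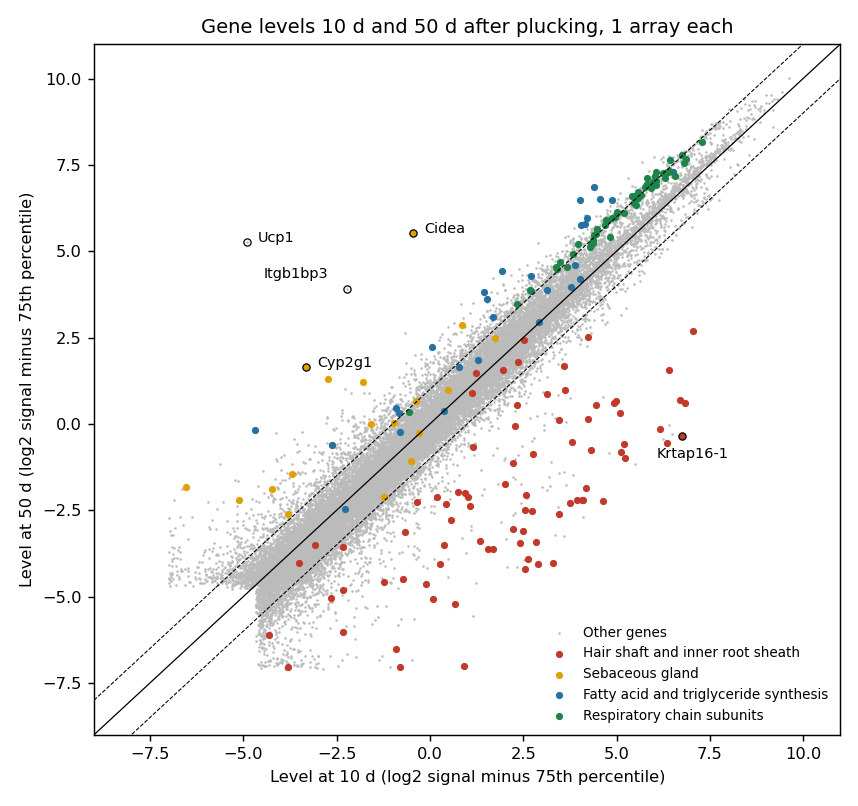
Level of each of 28353 measured genes at 50 d against 10 d (log2 relative to the 75th percentile of each array), with lines of no difference (solid) and 2-fold (dashed). Hair genes (red) lie below the lower dashed line in most cases, respiratory chain genes (green) lie along the upper dashed line at the bright end, and Ucp1, Cidea, Cyp2g1 and Itgb1bp3 stand above.

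The other plucked arrays show which of the 2 arrays carried each difference. Of the 1728 genes at least 2-fold higher at 50 d, 1411 (81.7%) had their highest plucked level at 50 d and 1033 (59.8%) had their lowest at 10 d, with 793 in both sets. Of the 1847 lower genes, 914 (49.5%) had their lowest plucked level at 50 d and 1256 (68.0%) had their highest at 10 d, with 507 in both. So 50 d was more often the outlying array among higher genes, and 10 d among lower genes. On the dimmer array 268 (15.5%) of the higher genes and 556 (30.1%) of the lower genes were not well above background. Ranks near background therefore enter the shares of lower genes more often. List medians were placed the same way. Those of shaft keratins and inner root sheath genes at 50 d lay inside the range of the 12 h to 2 d arrays. The keratin-associated median at 50 d (-1.91) lay below all other arrays, next to 1 d (-1.87). Those of sebaceous and suprabasal genes lay below all other arrays at 10 d. Those of synthesis, respiratory chain and muscle genes lay above all others at 50 d. In 77 of the higher and 184 of the lower genes neither array was the extreme. These shares follow in part from how the genes were called, since each was chosen for the gap between the same 2 arrays.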

How the data were processed

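Agilent one-colour arrays, 1 at each time, were analysed. Per the file headers, the deposited files give the intensity of each spot from Agilent Feature Extraction 10.5.1.1, with background subtraction and detrending in the authors' software, surrogates for dim spots and no recorded normalization between arrays. Probe positions are mm9 per the headers. All 8 arrays carry 1 scan date in the headers, and whether they lay on 1 slide was not checked.

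Control and outlier spots were removed and the rest averaged by probe (55668 of 55681 probes used), and log2 signals were taken relative to the 75th percentile of each array. The brightest probe over the pair stood for a gene, kept when well above background on the brighter array. Where every probe was dim on the lower array, the fold is a bound ("at least") against the higher of its own signal and the faintest probe above background there. Counts and medians of lists use measured values. A call is 2-fold. No spot was saturated.

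The 45 lists, their members and the comparison were chosen with earlier results of these data known. Genes named have a proper symbol (no clone, predicted gene or accession name) and are the 12 highest and 12 lowest measured on both arrays, the 5 largest bounds each way, up to 5 members per list by size, and known ligands and targets. Other members named were chosen after their values were seen. Accessions of 27229 probes matched RefSeq names (GRCm38.p6). Software was pandas 2.3.3 and numpy 2.4.6 (Python 3.11.15), with limma 3.58.1 (R 4.3.3) for normexp at offset 50. The calling step was tested on simulated data. Alternatives were quantile scaling, centring on probes above background on all arrays, normexp, the background filter on both arrays or none, the mean over probes, the brightest probe over 8 arrays, and thresholds of 1.5-fold and 3-fold. Dividing log2 signals by the spike-in slope and the use of the 6 d array in place of 10 d were added after seeing the data. Some genes withheld from this text are not reported here by name, though they count in their lists.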

Additional observations from a re-analysis of the deposited data

How the results depend on the processing

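The counts of higher and lower genes stayed within 1.5 times of 1728 and 1847 under the scalings, filters and probe choices other than normexp, which gave 1053 higher and 651 lower. At 1.5-fold 4270 genes were higher and 4604 lower, and at 3-fold 437 and 655. With the 6 d array in place of 10 d, 1229 were higher and 1944 lower. Of 251 genes named by the rule, none changed sign in a 2-fold difference, but differences moved by more than the probe SD of 0.22 for 94 with normexp, 84 with the spike-in slope, 41 with quantile scaling, 26 with the mean over probes and 1 with the brightest probe over 8 arrays.

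List medians that moved by more than that SD or changed sign are given by setting. With quantile scaling they were lipid droplet 0.52, fatty acid uptake and oxidation 0.62, citric acid cycle 0.83, respiratory chain 0.77, glucocorticoid -0.46, fibroblast -0.64, skeletal muscle 0.68, erythrocyte -0.93, B cell 0.11 and T and NK cell -0.029. With the spike-in slope they were hair shaft keratins -4.42, inner root sheath -3.76, keratin-associated -5.66, glucocorticoid -0.44, fibroblast -0.64, erythrocyte -1.05, macrophage -1.002, B cell 0.060 and T and NK cell -0.0048. With normexp they were inner root sheath -2.92, keratin-associated -3.52, hair matrix factors -0.45, melanocyte -0.67, wound keratinocyte -0.31, sebaceous 1.24, dermal papilla 0.012 and B cell 0.037. With the filter on both arrays they were hair shaft keratins -4.64, melanocyte -1.24, wound keratinocyte -0.25 and sebaceous 1.39, over fewer members. With the mean over probes they were inner root sheath -3.74, bulge and hair germ 0.32, brown and beige fat 1.20, dermal papilla 0.061, BMP -0.099 and T and NK cell -0.20. With centring on probes above background, dermal papilla was 0.0074 and B cell 0.018. With dim members at their bound, keratin-associated was -4.75. The cause was not tested. The lists whose sign changed had main medians between -0.04 and 0.19. No paired analysis was possible because each time has 1 array. Leaving out a replicate was not possible for the same reason, and signal near background limits the fold of genes given as bounds.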

Other observations

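Several gene families, grouped by the start of their names and in part shared with the lists above, had a large share of members past 2-fold, against 6.09% of all genes higher and 6.51% lower. All 11 measured major urinary protein genes (Mup) were above 0 and 8 were at least 2-fold higher at 50 d, with a median of 1.12. Mup2 was at 4.74 at 10 d and 6.11 at 50 d, with 4.94 to 5.78 on the other plucked arrays. Other members stood less apart. Mup3 was at 4.87 and 5.98, with 4.73 to 5.93 elsewhere, and Mup6, at 0.86 and 2.14, lay inside its range of 0.67 to 2.32 at both times. These pheromone carriers are near-identical copies, so their probes cannot be taken as separate genes. Of 8 small heat shock protein names (Hspb) 6 were at least 2-fold higher, with a median of 1.26. Hspb3 was at 0.53 and 2.28, with 0.69 to 1.43 elsewhere, and Hspb6 was at 6.18 and 7.67, with 6.35 to 7.04 elsewhere. Of 16 Asb genes, which encode substrate adaptors of ubiquitin ligases, 7 were higher and none lower, with a median of 0.95. Asb10 was at 0.83 and 2.67, with 0.82 to 1.60 elsewhere. Of 10 Kbtbd genes 6 were higher, among them Kbtbd13 at -3.23 and -1.01, with -2.86 to -2.49 elsewhere. Several Hspb, Asb and Kbtbd genes are known from striated muscle, and the muscle list differed by a median of 1.00 between the same arrays. The part of muscle RNA in them was not tested. Of 9 coenzyme Q synthesis genes (Coq) 4 were higher, with Coq7 at 1.73 and 3.28.

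The late cornified envelope genes (Lce) split by group. Of 17 measured 10 were higher and 2 lower. The higher members were all of the Lce1 group, such as Lce1b at -3.27 and -0.62 and Lce1d at -3.50 and -0.77. On the other plucked arrays Lce1b lay between -0.17 and 3.23 and Lce1d between -0.10 and 3.26. For these genes the 10 d and 50 d levels were both below that range. Lce1m, at 0.90 at 50 d, lay inside its range of 0.82 to 4.39. The lower members were Lce3c, at -1.65 and -2.99, and Lce3f, below background at 50 d. Lce3 genes are known to rise in wounded or inflamed epidermis. Of 8 Dlx homeobox names 4 were lower, namely Dlx1, Dlx2, Dlx4 and Dlx5, and the antisense Dlx6as1 was higher with its 10 d level below background. Of 12 Klra genes, which encode receptors of natural killer cells, 4 were lower and none higher, with a median of -0.94. All but Klra1, at 1.23 and 0.54, lay below the 75th percentile on both arrays. Faint genes were called lower more often, up to 17.7% in the lowest decile. Of olfactory (Olfr) and vomeronasal (Vmn) receptor genes 13.9% and 19.7% were also lower. The families were picked by their share of called members, so the shares are a description.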
